A study of Mus musculus with 2 samples.

Results

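The BTB zinc finger transcription factor genes were examined for binding of Notch1 in gamma delta T cells. Members were the protein-coding genes of the GENCODE M21 mouse annotation with symbols that start with Zbtb, together with Bcl6 and Bcl6b, which gave 43 of 21938 protein-coding genes on nuclear chromosomes. The other 21895 genes are called other genes below. The rule used names only and no measured value. When the coding sequences of the members were translated, 42 held at least 1 C2H2 zinc finger pattern, between 1 in Zbtb5, Zbtb9 and Zbtb43 and 14 in Zbtb17 and Zbtb41. Zbtb8os held 0. It is named for its place on the opposite strand beside Zbtb8 genes and is not a zinc finger factor, and it is kept in the counts because the rule takes it.

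Chromatin came from primary thymic gamma delta T cells. The mice were C57BL/6, of wild type genotype and 0 to 3 days old. The cells had been fixed with 0.5% formaldehyde for 5 min, and libraries had been amplified by 18 cycles of PCR. There was 1 library precipitated with a rabbit monoclonal antibody against Notch1 (clone D1E11) and 1 input library without antibody, from cells of the same strain, tissue and age. The Notch1 library is given as a peak list of 5913 peaks on mouse build mm10, of which 5910 lie on nuclear chromosomes. The input is not analysed here. With 1 library there was no replicate, the read depth is unknown, and intervals below are Wilson 95% intervals that cover counting error only. The number of mice or preparations behind the library is not given in the sources used here. A peak list measures no expression, so neither the cell type nor the activity of a gene could be checked from it.

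BTB zinc finger proteins pair an amino-terminal BTB domain, through which they dimerise and recruit co-repressors such as NCOR, SMRT and BCOR, with carboxy-terminal C2H2 zinc fingers that contact DNA. Several decide lymphocyte fate. Zbtb16 encodes PLZF, the factor of innate-like T cells, among them natural killer T cells and a subset of gamma delta T cells. Zbtb7b encodes ThPOK, which directs thymocytes to the CD4 helper lineage, and Bcl6 encodes the repressor of follicular helper T cells and germinal centre B cells. Notch1 is a surface receptor whose cleaved intracellular domain reaches DNA through the protein RBPJ, which binds the core sequence TGGGAA. Whether genes of this family have Notch1 peaks near them is the comparison that follows from the study's aim of locating binding of the intracellular domain.

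The sequences below are those on which the description of the family turns. They show the promoter peak of highest score (Zbtb11), the peak upstream of Zbtb18, the intronic peak of Bcl6 and both intronic peaks of Zbtb16. All are read 5′ to 3′ on the plus strand of RefSeq's GRCm38.p6 assembly, the assembly behind mm10, and were cut to stretches of at most 300 bases with no annotated untranslated region. Capitals mark TGGGAA or its reverse complement TTCCCA.
Zbtb11, chr16:55973574-55973873: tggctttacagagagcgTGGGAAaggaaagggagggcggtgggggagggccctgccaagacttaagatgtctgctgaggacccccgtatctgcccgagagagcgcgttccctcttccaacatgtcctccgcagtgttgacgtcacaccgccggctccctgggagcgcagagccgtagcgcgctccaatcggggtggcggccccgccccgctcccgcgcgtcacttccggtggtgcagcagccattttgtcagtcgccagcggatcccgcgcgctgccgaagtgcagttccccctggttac
Zbtb18, chr1:177441454-177441753: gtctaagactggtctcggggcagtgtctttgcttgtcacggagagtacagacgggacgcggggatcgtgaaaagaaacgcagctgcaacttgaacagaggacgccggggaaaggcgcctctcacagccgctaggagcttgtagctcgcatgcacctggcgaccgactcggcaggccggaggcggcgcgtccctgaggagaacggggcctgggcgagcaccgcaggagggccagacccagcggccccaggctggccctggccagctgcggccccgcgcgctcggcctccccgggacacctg
Bcl6, chr16:23985529-23985795: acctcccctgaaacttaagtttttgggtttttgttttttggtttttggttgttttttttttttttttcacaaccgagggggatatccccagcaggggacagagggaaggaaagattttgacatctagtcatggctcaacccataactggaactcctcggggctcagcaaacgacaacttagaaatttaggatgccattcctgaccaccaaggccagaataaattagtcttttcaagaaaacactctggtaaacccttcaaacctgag
Zbtb16, nearer peak, chr9:48795038-48795337: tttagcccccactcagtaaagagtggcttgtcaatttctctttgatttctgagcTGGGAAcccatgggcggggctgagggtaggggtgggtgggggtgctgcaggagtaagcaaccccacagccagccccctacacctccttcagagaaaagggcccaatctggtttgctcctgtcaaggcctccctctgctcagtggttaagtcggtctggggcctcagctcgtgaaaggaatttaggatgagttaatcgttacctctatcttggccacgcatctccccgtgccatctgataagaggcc
Zbtb16, farther peak, chr9:48715529-48715828: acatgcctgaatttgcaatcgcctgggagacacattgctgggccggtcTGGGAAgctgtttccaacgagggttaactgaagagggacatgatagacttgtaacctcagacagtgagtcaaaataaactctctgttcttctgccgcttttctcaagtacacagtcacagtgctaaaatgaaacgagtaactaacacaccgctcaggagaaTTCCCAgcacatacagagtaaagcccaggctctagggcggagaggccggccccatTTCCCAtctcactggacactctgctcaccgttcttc

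Of the 43 members, 9 had a Notch1 peak within 5 kb of a start site, namely Bcl6b, Zbtb11, Zbtb41, Zbtb2, Zbtb21, Zbtb18, Zbtb24, Bcl6 and Zbtb33. That was 20.9% of members (Wilson interval 11.4 to 35.2%), beside 8.79% of other genes. Within 50 kb, 21 members had a peak, 48.8% (34.6 to 63.2%), beside 30.6% of other genes. Within 1 kb it was 6 members, 13.95%, beside 5.14% of other genes, within 10 kb 11 members beside 12.2%, within 20 kb 12 members beside 17.6%, and within 100 kb 31 members, 72.1%, beside 45.7%. The median distance from a start site to the nearest peak was 55.9 kb for members and 118.6 kb for other genes. These differences were not tested, since members of a family are not replicates and the family was chosen with earlier results of these data known.

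Members differed from other genes in promoter composition, which moves with having a peak. The median CpG ratio (observed over expected CpG in the 500 bp on either side of the gene's 5′ end) was 0.839 for members and 0.551 for other genes. Among genes with a ratio of at least 0.6, 8 of 34 members (23.5%, 12.4 to 40.0%) had a peak within 5 kb, beside 12.8% of 10049 other genes. In the same class 17 of 34 members (34.1 to 65.9%) had one within 50 kb, beside 38.1% of other genes. Both shares of other genes in this class lie inside the members' intervals, the one at 5 kb close to the lower limit. Within 100 kb, 26 of 34 members in this class had a peak (60.0 to 87.6%). The share of other genes there was 54.1%, below that interval. The intervals take members as independent, while some neighbouring members share a peak. A share inside or outside an interval is therefore no test, and none of these differences was tested. All 8 CpG-rich members with a peak within 5 kb were among the 25 with a ratio of at least 0.8, where 14.9% of other genes had a peak. None of the 9 members between 0.6 and 0.8 did, beside 11.2% of other genes. The number of start sites had a median of 3 in members and in other genes, and gene length one of 19.3 kb in members and 17.4 kb in other genes.

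**Figure D1:**
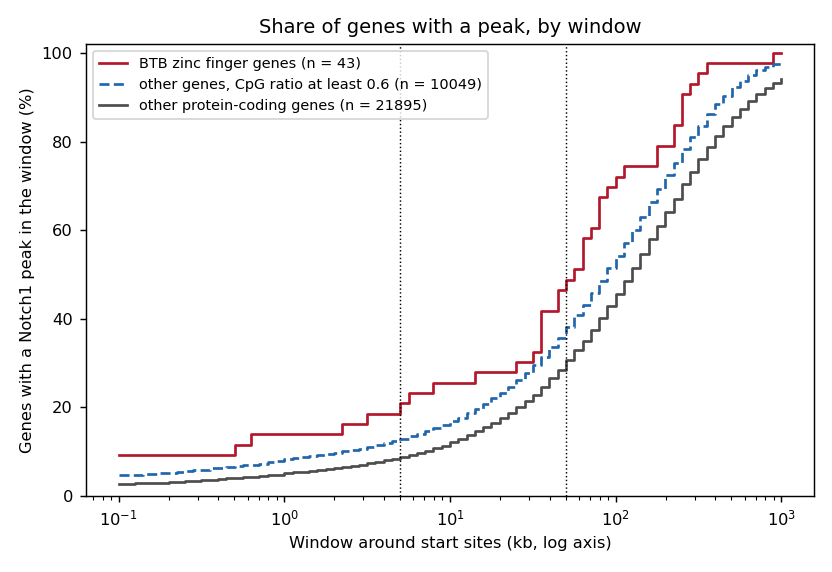
Percentage of genes with a Notch1 peak (vertical axis) within a given window around any start site (horizontal axis, kb, logarithmic), for the 43 BTB zinc finger genes, for other genes with a promoter CpG ratio of at least 0.6 and for all other genes; dotted lines mark 5 and 50 kb. The family's line passes 20.9% at 5 kb and 48.8% at 50 kb, above the line of all other genes at 8.79% and 30.6%, and the CpG-rich genes pass 12.8 and 38.1%.

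**Figure D2:**
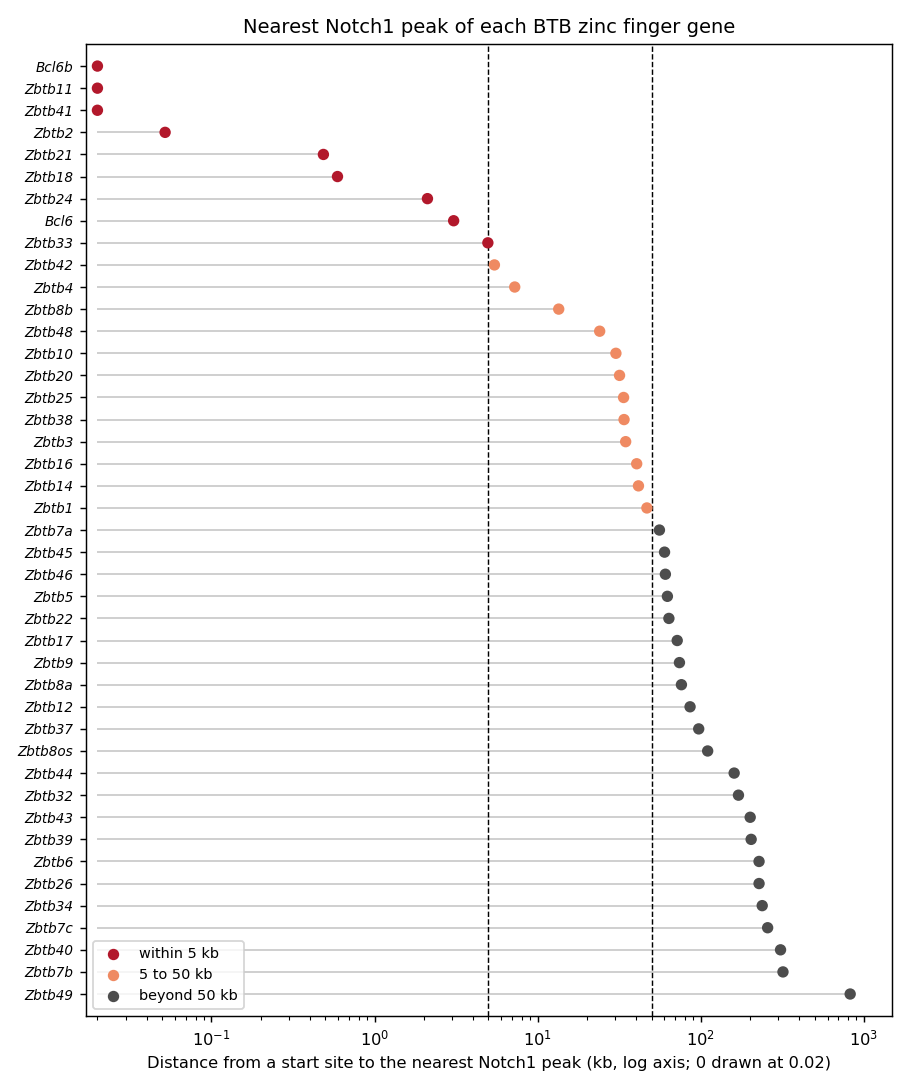
Distance (kb, logarithmic axis) from the closest start site of each of the 43 members to its nearest Notch1 peak, with 0 drawn at 0.02 kb; colours mark peaks within 5 kb, between 5 and 50 kb and farther, and dashed lines mark the 2 windows. Members run from Bcl6b, Zbtb11 and Zbtb41 with a peak over a start site to Zbtb49 at 825.8 kb.

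Of the peaks within 50 kb of a member, that at Zbtb11 had the highest score. It spanned 505 bp at chr16:55973566-55974070, covered the annotated start site and reached into coding sequence. Its deposited score of 1610 exceeded that of 96.4% of nuclear peaks. The score is the authors' own value and serves here only to rank peaks within the list. The start of Zbtb11os1, an antisense RNA gene, lay within 1 kb of the same peak, and a start site of the ribosomal protein gene Rpl24 lay within 5 kb. A peak that serves several start sites cannot be given to 1 gene from its position.

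Peaks at the other promoters of the family scored lower. Bcl6b, a close relative of Bcl6, had a peak over its start site at chr11:70229319-70229710 with a score of 663. Zbtb41 had one over its start site at chr1:139421995-139422378 with a score of 605, and at Zbtb2 the peak (chr10:4387662-4388056, score 660) ended 52 bp inside the gene from its start. At these 3 genes the peak overlapped the 5′ untranslated region. Of the nuclear peaks, 32.8% had a lower score than the Bcl6b peak, 13.5% than that of Zbtb41 and 31.5% than that of Zbtb2, and the median of the list was 718. The peaks of Zbtb41, Zbtb2 and Zbtb11 were GC-rich, with 70.3, 76.2 and 69.5% G or C.

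Zbtb18 encodes a repressor known for its part in the developing cerebral cortex. Its promoter peak at chr1:177441450-177441758 lay 593 bp upstream of a start site and scored 752. It held 68.6% G or C and 0% soft-masked repeat sequence. A second peak lay 43.5 kb from a start site, beyond the gene (chr1:177489368-177489764, score 841), and Zbtb18 was the nearest protein-coding start site of both. Zbtb21 had a peak 486 bp upstream (chr16:97963108-97963531, score 611), of which 40.3% was soft-masked repeat sequence. A start site of C2cd2 lay within 1 kb of the same peak.

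The remaining 3 of the 9 peaks lay inside their genes and off the promoter, taken as the 1 kb before and after any start site. Zbtb24, which is mutated in a human immunodeficiency with centromere instability, had a peak 2112 bp from a start site (chr10:41452668-41453099, score 979), over a 3′ untranslated region of at least 1 of its transcripts. The Bcl6 peak was intronic, 3057 bp downstream of the start (chr16:23985529-23985795, score 859), and 32.6% of it was soft-masked. A start site of the predicted gene Gm37419 lay nearer to it, at 2687 bp. Without that peak the nearest to Bcl6 lay 163 kb away. Zbtb33 encodes Kaiso, a reader of methylated DNA, and its peak, 4956 bp from a start site, overlapped the 3′ untranslated region (chrX:38194790-38195036, score 1205).

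The count of 9 depended little on how distance was taken. It was again 9 with 1 start site a gene, at its 5′ end, beside 6.49% of other genes. It was 8 by peak midpoint (beside 8.65%), 8 of the 37 members with a RefSeq start site (beside 6.77%) and 7 without peaks of at least 20% soft-masked bases (beside 6.35%), since Zbtb21 and Bcl6 then dropped out. The count of 21 within 50 kb depended on assignment, repeat limit and score. It was 13 when a peak counted for the gene of its closest start site and no other, beside 14.4% of other genes. Without peaks of at least 20% soft-masked bases it was 15, beside 21.6%. With peaks at or above the median score it was 14, beside 18.7%.

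The limit of 5 kb cuts through a short gap. Zbtb33 stood just inside it at 4956 bp and Zbtb42 just outside at 5436 bp, with a peak of score 1118 that lay 552 bp from a start site of Akt1, a kinase gene. At 50 kb the members on either side were Zbtb1 at 46.8 kb and Zbtb7a at 55.9 kb.

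**Figure D3:**
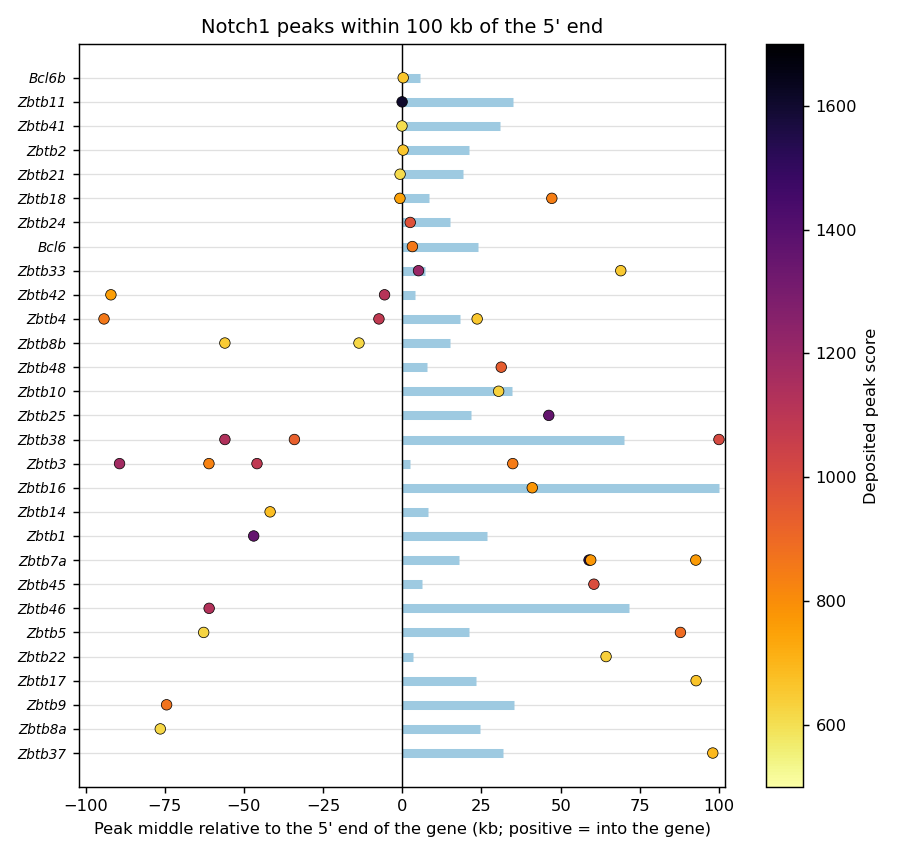
Position of each peak's middle relative to the 5′ end of the gene (horizontal axis, kb) for the 29 members with a peak middle within 100 kb. Positive values run in the direction of transcription and can lie beyond the end of the gene. The gene is drawn as a blue bar cut at 100 kb and the deposited score as colour. The 6 promoter peaks stack at 0, the darkest being that of Zbtb11 (score 1610), while other peaks are scattered on both sides.

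Of the 12 members whose nearest peak lay between 5 and 50 kb, 5 had the closest protein-coding start site to a peak in that range. These were Zbtb10 (30.2 kb), Zbtb20 (31.8 kb), Zbtb38 (33.9 kb), Zbtb16 (40.5 kb) and Zbtb14 (41.6 kb). The peaks of Zbtb10, Zbtb20 and Zbtb16 lay inside the gene, and those of Zbtb38, another reader of methylated DNA, and Zbtb14 in intergenic sequence upstream. Of the Zbtb38 peak 35.0% was soft-masked. At Zbtb10 the peak covered coding sequence and the 3′ untranslated region. Zbtb20, a factor of plasma cells and of the hippocampus, has 19 annotated start sites over a gene of 766.7 kb, and its intronic peak (score 821) lay 403 kb from the 5′ end of the gene.

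The other 7 lay near peaks that were closer to another gene. The peak near Zbtb4, a further methylated DNA reader (7.24 kb away, score 1082), covered a start site of Polr2a, which encodes the largest subunit of RNA polymerase II. The peak near Zbtb48, which encodes a telomere-binding protein (24.0 kb), lay 11 bp from a start site of Phf13. Zbtb3 had a peak at Bscl2 (34.7 kb) and one at Nxf1 (45.6 kb). Zbtb8b lay 13.5 kb from an intergenic peak that was nearer to Bsdc1 and 56.8% soft-masked. Zbtb1, needed for lymphocyte development, and its neighbour Zbtb25 shared a peak nearer to Akap5 (46.8 and 33.7 kb, score 1358, 43.6% soft-masked). Zbtb42 was described above.

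Zbtb16 was one of 10 members with a peak inside the gene (23.3%, beside 11.6% of other genes), and the one with more than 1. Both of its peaks were intronic. The nearer (chr9:48794960-48795416) scored 780 and lay 40.5 kb from a start site. The farther (chr9:48715519-48715839) scored 835 and lay 120 kb from a start site. The promoter of Zbtb16 had no peak within 5 kb. The nearer peak held 1 TGGGAA core and the farther 3, as the sequences above show. At least 1 core was present in 29.5% of all nuclear peaks and at least 3 in 0.948%. The gene spans 181.9 kb, and of other genes of at least 100 kb 35.8% hold a peak.

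Members known from lymphocytes or dendritic cells, grouped here after their values were known, did not share a pattern. Of 11 such genes 3 had a peak within 5 kb (Bcl6, Bcl6b and Zbtb24) and 6 within 50 kb (these with Zbtb16, Zbtb1 and Zbtb20), beside 8.79 and 30.6% of other genes. Zbtb7b lay 320 kb from its nearest peak, which was at Adar. Zbtb17, which encodes the MYC partner MIZ1, lay 71.8 kb from a peak at Spen, a gene of an RBPJ co-repressor. Zbtb7a, which encodes LRF, lay 55.9 kb from a peak of score 1531 near Dapk3. Zbtb46, a marker of classical dendritic cells, lay 60.8 kb from a peak over a start site of Dnajc5, and Zbtb32, a restrainer of T cell cytokine production, 171 kb from one at Nfkbid (score 1840). All 3 readers of methylated DNA (Zbtb33, Zbtb4 and Zbtb38) had a peak within 50 kb, beside 30.6% of other genes, and Zbtb33 had one within 5 kb. With 3 genes grouped after the fact, and a nearest peak of Zbtb4 that covers the start of Polr2a, no more than the count can be read from this.

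The 22 members with no peak within 50 kb fell into 10 between 50 and 100 kb and 12 farther away. The first were Zbtb7a, Zbtb45, Zbtb46, Zbtb5, Zbtb22, Zbtb17, Zbtb9, Zbtb8a, Zbtb12 and Zbtb37. The second were Zbtb8os, Zbtb44, Zbtb32, Zbtb43, Zbtb39, Zbtb6, Zbtb26, Zbtb34, Zbtb7c, Zbtb40, Zbtb7b and Zbtb49, between 110 and 826 kb. Neighbouring members shared their nearest peak, as Zbtb6 with Zbtb26, Zbtb34 with Zbtb43, Zbtb1 with Zbtb25, and Zbtb8a, Zbtb8b and Zbtb8os with one another, so that the 43 members had 38 different nearest peaks. By chromosome, the 9 members with a peak within 5 kb were 3 of 4 on chromosome 16, 2 of 3 on chromosome 1, 2 of 4 on chromosome 10, 1 of 2 on chromosome 11 and the 1 on chromosome X, where 9.55, 12.1, 8.16, 11.4 and 1.58% of other genes had one. The largest sets without such a member were the 7 on chromosome 4 and the 5 on chromosome 2, where 7.80 and 8.54% of other genes had a peak.

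The score of peaks near members spanned much of the list. The 9 peaks within 5 kb of a member had a median score of 752 and ranged between 605 and 1610, beside a median of 732 for 2030 peaks within 5 kb of other genes. Of these 9, 5 reached the median of all nuclear peaks and 3 the upper quartile of 904. Limited to peaks at or above that median, 5 of 43 members had one within 5 kb, beside 5.06% of other genes. Limited to the upper quartile, 3 did (Zbtb11, Zbtb24 and Zbtb33), beside 2.61%, and 10 members had one within 50 kb, beside 10.4%. The 23 different peaks within 50 kb had a median of 841. In the merged windows of 50 kb around members' start sites, which cover 4.74 Mb, this gave 4.85 peaks per Mb, beside 3.09 in the same windows of other genes.

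**Figure D4:**
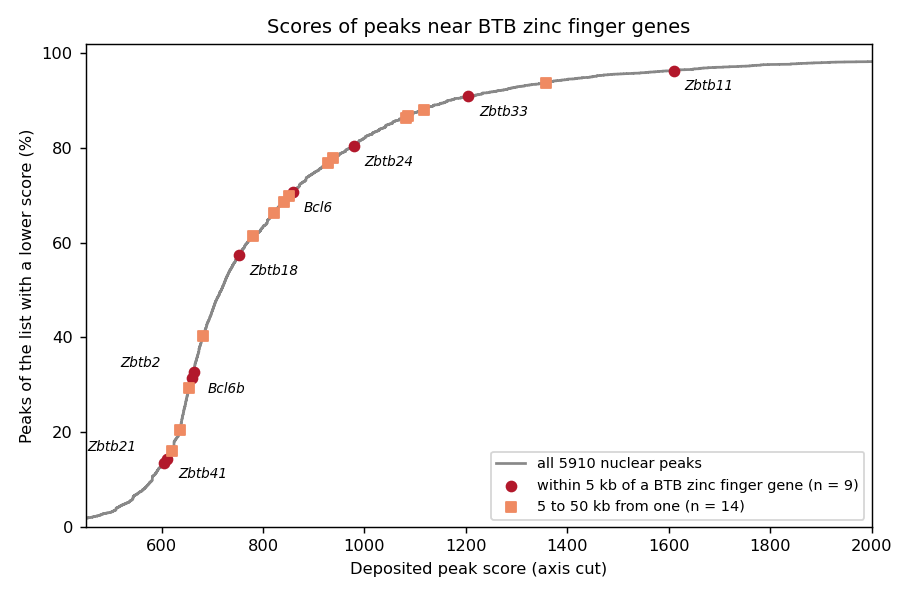
Deposited score of each peak (horizontal axis, shown between 450 and 2000) against the percentage of nuclear peaks with a lower score (vertical axis), with the whole list as a grey line, the 9 peaks within 5 kb of a member as circles with gene names and the 14 peaks 5 to 50 kb away as squares. Bcl6b, Zbtb2, Zbtb21 and Zbtb41 sit in the lower part of the list and Zbtb11 near its top.

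Sequence under the peaks was scanned on both strands for TGGGAA (the RBPJ core), GTGGGAA (a longer form that contains the core), TGTGGT (RUNX), CCGGAA (ETS) and CACGTG (an E-box). In the central 200 bp, 0 of the 9 peaks within 5 kb held the core, beside 17.0% of all nuclear peaks. Over whole peaks 2 of 9 did, Zbtb11 and Zbtb33, beside 29.5% of nuclear peaks. In both the core was preceded by G and so formed the longer string, which 7.68% of whole nuclear peaks held. The ETS string was found in 4 of the 9 whole peaks (Zbtb11, Zbtb41, Zbtb2 and Zbtb24), beside 7.39% of nuclear peaks and 14.1% of peaks within 5 kb of other genes. The E-box was found in 2 (Zbtb11 and Zbtb2), beside 5.62% of nuclear peaks and 7.59% of peaks within 5 kb of other genes. The RUNX string was found in 2 (Zbtb11 and Zbtb33), beside 26.9 and 25.6%. In the central 200 bp, ETS, E-box and RUNX strings were each found in 1 of the 9 peaks, beside 4.23, 2.93 and 16.8% of nuclear peaks. Of peaks within 5 kb of other genes, 8.47, 4.04 and 14.7% held them there. In the 200 bp upstream of the gene's 5′ end, ETS was found in 25.6% of members and 12.2% of other genes, the E-box in 13.95% of members and 5.63% of other genes, the RUNX string in 13.95% of members and 10.4% of other genes, the core in 6.98% of members and 17.7% of other genes, and the longer form in 2.33% of members and 4.17% of other genes. The ETS and E-box strings contain CpG, and members had the higher promoter CpG ratio (median 0.839 beside 0.551). The promoter shares were not compared within CpG-rich genes. A match is a string in the sequence and not a measured site, and these shares were not tested.

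A core from each of 6 peaks is shown with 10 bases on each side, on the strand that reads TGGGAA, which is in capitals, to let the flanks be compared.
Zbtb11, chr16:55973581-55973606, plus strand: acagagagcgTGGGAAaggaaaggga
Zbtb33, chrX:38195004-38195029, minus strand: cagcattttgTGGGAAcgttttcata
Zbtb42 and Akt1, chr12:112673176-112673201, minus strand: catggcatggTGGGAAgagtgtccca
Zbtb20, chr16:43279386-43279411, plus strand: tttttagtcaTGGGAActtaagaaaa
Zbtb16, nearer peak, chr9:48795082-48795107, plus strand: atttctgagcTGGGAAcccatgggcg
Zbtb18, distal peak, chr1:177489656-177489681, plus strand: gatttcatttTGGGAAatggccgttt
The first 3 carry G before the core and the last 3 do not. The other cores in peaks within 50 kb of a member or inside a member gene carry no G there either. They are that of the Bscl2 peak near Zbtb3 and the 3 of the farther Zbtb16 peak. Other peaks beyond 50 kb are not covered here, and that at Spen, 71.8 kb from Zbtb17, held the longer form. The cores of Zbtb11 and Zbtb33 stood 225 and 103 bp from the middle of the peak, and that of the Akt1 peak near Zbtb42 stood 40 bp from it.

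Genes related to the family were counted in the same way. Of 6 BTB zinc finger genes with other symbols (Hic1, Hic2, Mynn, Patz1, Gzf1 and Zfp131), 1 had a peak within 5 kb (Hic1, score 808) and 4 within 50 kb. Of 22 genes for partners and co-repressors of BTB proteins, 11 had a peak within 5 kb (interval 30.7 to 69.3%) and 17 within 50 kb, beside the same 8.79 and 30.6% of other genes. The highest scores were at Kdm2b, a histone demethylase gene of the BCOR complex (1759), the co-repressor gene Ctbp1 (1109), and the histone deacetylase genes Hdac5 (944) and Hdac7 (846). Bcor itself (647) and Cul3 (754), whose product forms ubiquitin ligases with BTB proteins, were among the 11. These genes had a median of 7.5 start sites, and with 1 start site a gene, at its 5′ end, 4 of 22 had a peak within 5 kb, beside 6.49% of other genes.

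Of 36 Klhl genes, whose proteins join a BTB domain to kelch repeats, 0 had a peak within 5 kb (upper Wilson limit 9.64%) and 9 within 50 kb. Of 17 Klf zinc finger genes, 3 had one within 5 kb (Klf6 966, Klf13 885 and Klf3 562) and 4 within 50 kb (23.5%). Of 5 Ikzf genes, 3 had one within 5 kb (Ikzf1 957, Ikzf3 923 and Ikzf2 615) and 4 within 50 kb. Beside these lists, 8.79% of other genes had a peak within 5 kb and 30.6% within 50 kb. With the gene's 5′ end alone, 1 of the Ikzf genes had a peak within 5 kb, beside 6.49% of other genes. The Klhl genes had a median promoter CpG ratio of 0.578, below the 0.839 of the BTB zinc finger genes. Among genes with a ratio of at least 0.6, 0 of 16 Klhl genes had a peak within 5 kb (upper Wilson limit 19.4%). In that class 8 of 34 BTB zinc finger genes did (12.4 to 40.0%), beside 12.8% of other genes. The intervals cover counting error only and do not compare the lists. No difference between lists was tested.

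**Figure D5:**
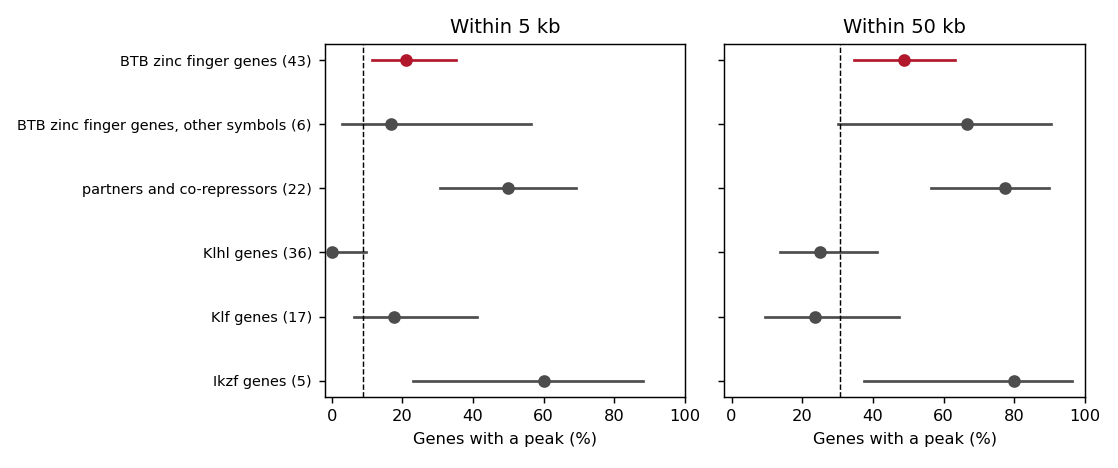
Percentage of genes with a Notch1 peak within 5 kb (left) and 50 kb (right) of a start site for the BTB zinc finger genes and 5 related lists, with the number of genes in brackets, Wilson 95% intervals as bars and the share of other genes (8.79 and 30.6%) as a dashed line. The BTB zinc finger genes lie at 20.9 and 48.8%, between the Klhl genes (0 and 9 of 36) and the partners and co-repressors (11 and 17 of 22).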

How the data were processed

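Per the submitters' processing notes, reads were aligned with Bowtie 1.0.0 and handled with SAMtools 0.1.18 on mm10. The authors deposited 1 peak list whose names start with MACS, with a score per peak; what the deposited score means, the version and settings of the caller, use of the input and treatment of duplicates are not stated there. Duplicate reads or repeated sequence can raise a score.

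Start sites of all transcripts of protein-coding genes (GENCODE M21) were set against the nearest edge of each peak with Python 3.11.15 and pandas 2.3.3; distances were checked on simulated peaks. Positions count from 1. Wilson intervals came from statsmodels 0.14.6, and sequence and soft-masking were read with pysam 0.24.0. Peak class was promoter (1 kb), exon, intron or intergenic, in that order. The zinc finger pattern was C, 2 to 4 residues, C, 12 residues, H, 2 to 6 residues, H, in the longest translated coding sequence, because no protein table was at hand. Named genes were all members, and up to 4 genes by score of each related list. Fuller values were given for members with a peak within 5 kb and for those known from lymphocytes or dendritic cells. Bcor, Cul3, Gm37419 and other neighbours were named after their values were seen. Members and lists were chosen with earlier results of these data known. No comparison was tested for significance, because there was 1 library.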

Additional observations from a re-analysis of the deposited data

How the results depend on the processing

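The 4 main results were recomputed under other windows, score limits, start sites, assignments and repeat limits. Of 30 recomputed values, 24 stayed within 1.5 times the count reported (for the median score, within its wide binomial interval of 611 to 1205). This limit takes counts and not shares. The 5 kb result passed it at 20 kb with 12 members, beside 17.6% of other genes. The 50 kb result passed it at 100 kb with 31 members, beside 45.7%. Leaving out Zbtb8os, with no peak within 50 kb, could not change a count. The 24 is therefore no measure of stability. With peaks at or above the median score 5 members kept a peak within 5 kb (Zbtb11, Zbtb18, Zbtb24, Bcl6 and Zbtb33), beside 5.06% of other genes. In the upper quartile of score 3 did (Zbtb11, Zbtb24 and Zbtb33), beside 2.61%, and 10 had one within 50 kb, beside 10.4%. With a peak counted only for the gene of its closest start site, 13 members had a peak within 50 kb, beside 14.4%, and with a window of 20 kb 12 did, beside 17.6%. The RBPJ core was in 2 of 9 peaks over the whole peak and in 0 over the central 200 bp. Without peaks of at least 20% soft-masked bases, 7 members had one within 5 kb (beside 6.35%) and 15 within 50 kb (beside 21.6%). With peak midpoints Zbtb33 moved to 5.08 kb and 8 remained. RefSeq start sites, an alternative chosen after seeing the data, matched 37 members, of which 8 had a peak within 5 kb (beside 6.77%). No replicate could be left out. No paired analysis was possible because there was 1 Notch1 library and the input is not analysed here. A missing peak shows only that none was called at an unknown depth.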
